A study of Mus musculus with 2 samples.

Results

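The expression of *Txnip*, its arrestin-domain relatives *Arrdc1* to *Arrdc4*, and the thioredoxin and thioredoxin reductase genes *Txn1*, *Txn2*, *Txnrd1* and *Txnrd2* was examined in the liver of control and iFIRKO mice. These 9 genes were chosen by symbol, and all 9 were found among the 53342 rows that the sequencing tables share. Each group was 1 library of liver mRNA from male mice. All had received intraperitoneal tamoxifen at 100 mg/kg on 5 consecutive days from the age of 7 weeks, with tissue taken 3 days after the final dose. The iFIRKO mice carried Adipoq-CreERT2 and Insr flox/flox, so that tamoxifen removes the insulin receptor from cells with an active adiponectin promoter, that is, from adipocytes and not from the liver itself, and the deletion cannot be checked in liver RNA. The control is given as WT by the sample label and as IR flox/flox by the methods of the study. The sources used here do not state whether a library came from 1 mouse or from a pool. With 1 library per group no difference had a replicate check, no p-value was computed, and the intervals below cover counting error only.

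Thioredoxins are small proteins that reduce disulfide bonds in other proteins, and thioredoxin reductases recharge them with electrons from NADPH. TXN1 and TXNRD1 work in the cytosol and nucleus, whereas TXN2 and TXNRD2 work in mitochondria. TXNIP, the thioredoxin-interacting protein, binds reduced thioredoxin and blocks its active site, and it also belongs to the α-arrestins, adaptor proteins that link membrane cargo such as glucose transporters to ubiquitin ligases of the NEDD4 family. In hepatocytes *Txnip* is known as a glucose-responsive gene, switched on by MLX paired with ChREBP or MondoA at carbohydrate response elements, which are pairs of E-box sequences.

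*Txnip* (ENSMUSG00000038393.14) spans chr3:96557957-96561883 of GRCm38 on the forward strand, and its longest coding transcript has 8 exons. The RefSeq promoter window, 250 bases before to 50 bases after the transcription start, was searched on both strands for a pair of E-boxes spaced by 5 bases (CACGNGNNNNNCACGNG, where N is any base). A match was present in the windows of 15 of 27025 gene symbols, and *Txnip* was the 1 member among them. In all, 0.0487% of the 32851 windows held it. The match, at chr3:96557872-96557888 and 85 to 69 bases before the start, is shown with the matched bases in capitals, since *Txnip* was the only member to hold it.

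*Txnip* promoter: ctgtgCACGAGGGCTGCACGAGcctcc

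The single E-box CACGTG, a case of the CACGNG of the pair, was found in 7.15% of windows and lay in the window of *Arrdc4* alone among the members, at chr7:68749426-68749431. The core of the antioxidant response element (TGACNNNGC), the sequence through which NRF2 acts, was found in 12.4% of windows and among the members in those of *Arrdc4* and *Txnrd1*. Both matches are on the opposite strand to the gene, at chr7:68749258-68749266 and chr10:82859114-82859122. For *Txnrd1* the match lies in 1 of its 3 annotated windows.

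*Arrdc4* promoter: ggcggGCCGTGTCAgcccc
*Txnrd1* promoter: tttttGCTTTGTCAttctg

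miR-144-3p, one of the miRNAs that the study examined as regulators of *Txnip*, is encoded at chr11:78073047-78073066 on the forward strand. The seed, bases 2 to 8, is in capitals in the mature RefSeq sequence.

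miR-144-3p: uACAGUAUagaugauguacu

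The longest annotated 3′UTR of each member (GENCODE M21) was searched for ATACTGT, the match to the seed. The 3′UTR of *Txnip*, of 1354 nt, held none. The study had predicted a target sequence for this miRNA there with other tools. A mimic of the miRNA lowered the activity of a reporter gene carrying that 3′UTR. The mimic also lowered TXNIP protein in cultured hepatocytes, and the study found less TXNIP in iFIRKO liver. The searches here were for letters alone, ATACTGT and the shorter TACTGTA and TACTGT given below, and the 3′UTR of *Txnip* held none of these. Whether the miRNA acts on *Txnip* was not tested. The 3′UTRs of *Arrdc3* (2616 nt) and *Arrdc4* (2482 nt) held 1 match to ATACTGT each, at chr13:80895210-80895216 and chr7:68738356-68738362. The 3′UTRs of the other members held no ATACTGT, which says only that these letters are not in those windows. A match was present in 20.5% of 3′UTRs within 20% of the length of that of *Arrdc3* and in 20.3% of those near the length of *Arrdc4*.

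*Arrdc3* also held 1 match to TACTGTA, which pairs with bases 2 to 7, shares the letters TACTGT with the seed match and ends in adenine, and which lies at chr13:80894130-80894136. TACTGTA was present in 22.6% of 3′UTRs near the length of that of *Arrdc3*. TACTGT without the other letters of either match was also found elsewhere in *Arrdc3*, at chr13:80894063-80894068. It was found as well in *Txnrd1*, which was not called lower, at chr10:82896506-82896511. The seed matches and the match to TACTGTA are given in capitals because *Arrdc3* and *Arrdc4* were, with *Txnip*, the members more than 1.5-fold lower in the iFIRKO library.

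*Arrdc3* 3′UTR, seed match: ctggttaaATACTGTcttaaagc
*Arrdc3* 3′UTR, match to bases 2 to 7: ttgcagccTACTGTAgtagataa
*Arrdc4* 3′UTR, seed match: ttacattgATACTGTgatttttt

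The deposited values are log2 normalized read counts and are given here on the linear scale, where both mates of a read pair are counted. The control library held an estimated 42276584 reads on genes and the iFIRKO library 41304952. Hepatocyte genes (*Alb*, *Apoa1*, *Ttr* and 5 others) summed to 5101800 normalized reads in control and 4748100 in iFIRKO, none of them at 0. A gene was compared when at least 1 library reached 41.79 normalized reads, the equivalent of a CPM of 1, and the 13400 genes that did so had a median log2 fold change of 0.0075. A gene was called higher or lower when its fold change, with a pseudocount of 4.18 normalized reads, was above 1.5 in either direction, the limit used in the study. By this rule 7.28% of the genes were lower and 4.46% were higher in the iFIRKO library.

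All 9 members passed the minimum. *Txnip*, *Arrdc3* and *Arrdc4* were more than 1.5-fold lower in the iFIRKO library, none of the 9 was higher, and the other 6 were within 1.5-fold, beside 7.28% lower and 4.46% higher over all genes tested. The members called were α-arrestins, 3 of 5, while 0 of the 4 thioredoxin and reductase genes was called. The median log2 fold change was -0.77 over the 5 α-arrestins and 0.068 over the 4 thioredoxin system genes.

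**Figure D1:**
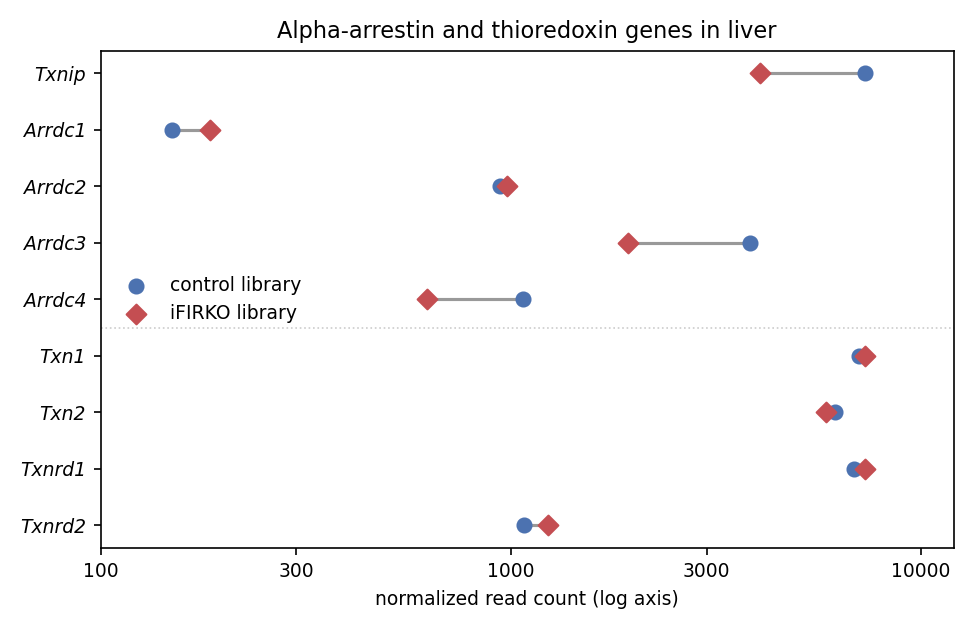
Normalized read count (log axis) of each of the 9 genes in the control library (circle) and the iFIRKO library (diamond), with α-arrestins above the dotted line and thioredoxin system genes below it. The 2 libraries lie far apart for *Txnip*, *Arrdc3* and *Arrdc4* and close together for *Txn1*, *Txn2* and *Txnrd1*.

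*Txnip* stood at 7320 normalized reads in control against 4051 in iFIRKO, from an estimated 3684 and 2012 read pairs. The iFIRKO value was 55.3% of the control value, or a log2 fold change of -0.85 with a 95% interval from -0.93 to -0.77. The whole interval lies beyond 1.5-fold. Among the 1549 tested genes within 2-fold of its mean level, 3.68% were called lower and 1.10% had a lower fold change than *Txnip*. An antisense gene, *Gm15441*, overlaps its exons on the opposite strand and stood at 12.5 normalized reads in control and 11.96 in iFIRKO.

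The values of *Arrdc3*, an α-arrestin known to act on β-adrenergic receptors, were further apart than those of *Txnip*. *Arrdc3* (ENSMUSG00000074794.10, forward strand of chromosome 13, 80883384 to 80896042) stood at 3825 normalized reads (control) and 1935 (iFIRKO). This is 50.6% of the control value, which gives a log2 fold change of -0.98 (interval -1.10 to -0.87). Its interval overlaps that of *Txnip*, and whether the sizes of these differences are unlike was not tested. Of the 2867 tested genes within 2-fold of its level, 0.523% had a lower fold change.

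*Arrdc4*, like *Txnip* a known glucose-responsive α-arrestin, was also called lower. *Arrdc4* (ENSMUSG00000042659.15, reverse strand of chromosome 7, 68736995 to 68749241) stood at 1068 normalized reads (control) and 625.4 (iFIRKO), or 58.6% of the control value. Its log2 fold change was -0.77, and the interval from -0.98 to -0.56 reaches inside the 1.5-fold limit of 0.585 on the log2 scale. Of 4753 tested genes near its level, 1.47% had a lower fold change. Neither *Arrdc3* nor *Arrdc4* shares a stretch of at least 200 nt at 95% identity or more with a transcript of another gene.

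The remaining α-arrestins did not go with these 3. *Arrdc2* (ENSMUSG00000002910.11, chromosome 8, 70835129 to 70839720) stood at 940.7 normalized reads (control) and 980.6 (iFIRKO), which gives a log2 fold change of 0.060 (interval -0.12 to 0.25). That interval lies wholly above those of *Txnip*, *Arrdc3* and *Arrdc4*. *Arrdc1* (ENSMUSG00000026972.15, chromosome 2, 24925352 to 24935252), whose product is known to drive the release of microvesicles from the cell surface by recruiting TSG101, stood at 149.2 normalized reads (control) and 185.1 (iFIRKO). Its log2 fold change of 0.30 rested on 75 and 92 read pairs, and the interval from -0.14 to 0.77 includes both no difference and a difference beyond 1.5-fold. *Arrdc5* was listed at 0 in both libraries.

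**Figure D2:**
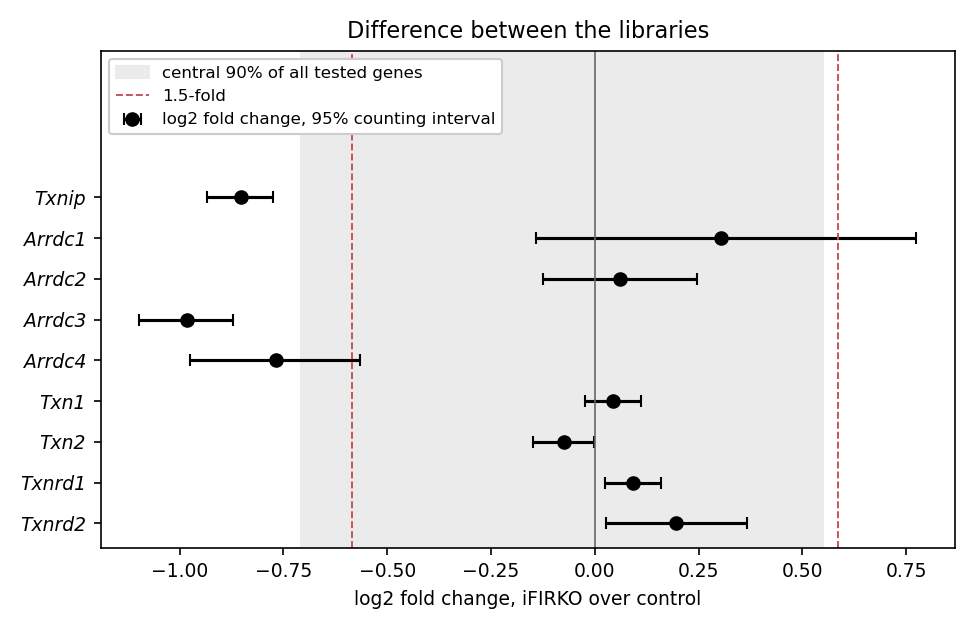
Log2 fold change of each gene (point) with its 95% counting interval (bar), with dashed lines at 1.5-fold and a grey band for the central 90% of the 13400 tested genes. The points of *Txnip*, *Arrdc3* and *Arrdc4*, at -0.85, -0.98 and -0.77, lie to the left of the band, and the other 6 lie inside it.

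The thioredoxin genes, which encode the protein that TXNIP binds, differed little between the libraries. *Txn1* (ENSMUSG00000028367.5, reverse strand of chromosome 4, 57943373 to 57956411) stood at 7071 normalized reads (control) and 7291 (iFIRKO), which gives a log2 fold change of 0.044 (interval -0.023 to 0.11). No difference was detectable at this depth, and the interval leaves out a change of 1.5-fold. The pseudogene *Txn-ps1* is 95.8% identical to *Txn1* over 309 nt, but it had 3.97 normalized reads in control and was listed at 0 in iFIRKO. *Txn2* (ENSMUSG00000005354.16, reverse strand of chromosome 15, 77915047 to 77929006), the mitochondrial form, had 6179 and 5868 normalized reads. Its log2 fold change was -0.074, and the interval from -0.15 to -0.0012 only just leaves out 0.

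Both reductase genes had slightly higher values in the iFIRKO library and stayed within 1.5-fold. *Txnrd1* (ENSMUSG00000020250.10, forward strand of chromosome 10, 82833951 to 82897712) stood at 6874 normalized reads (control) and 7321 (iFIRKO), which gives a log2 fold change of 0.091 (interval 0.023 to 0.16). *Txnrd2* (ENSMUSG00000075704.16, forward strand of chromosome 16, 18426384 to 18479073) had 1078 and 1234, which gives a log2 fold change of 0.19 (interval 0.027 to 0.37). No source states that strand was used in counting, and the value of *Txnrd2* is uncertain for that reason. *Txnrd3*, another reductase outside the 9 genes, had 249.4 and 281.9 normalized reads.

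**Figure D3:**
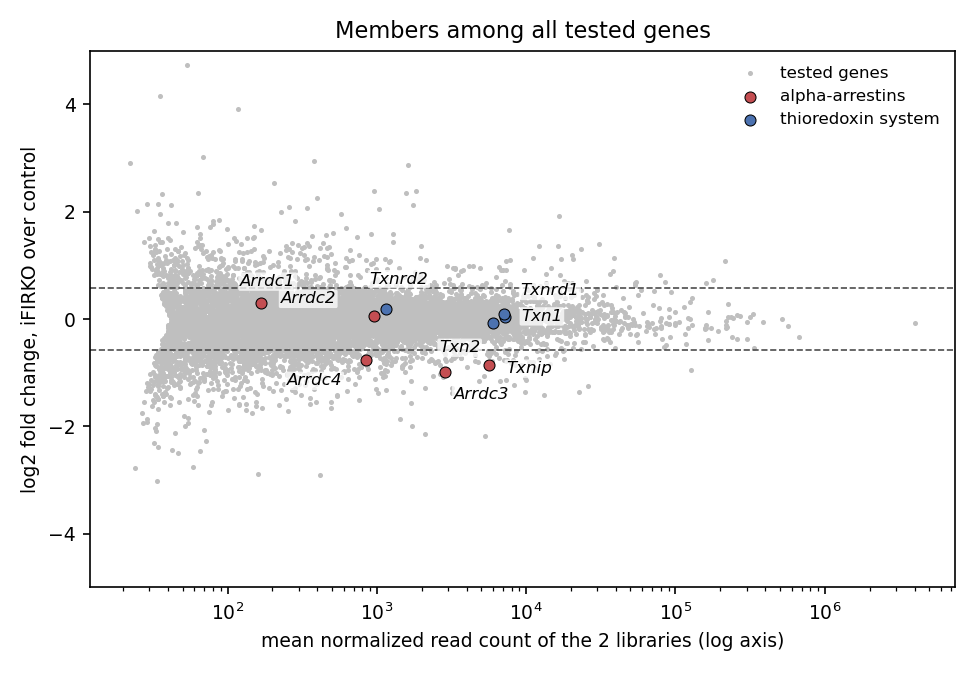
Log2 fold change of the 13400 tested genes (grey) against the mean normalized read count of the 2 libraries (log axis), with the α-arrestins in red, the thioredoxin system genes in blue and dashed lines at 1.5-fold. *Txnip* and *Arrdc3* lie below the dense band of genes of like level, where 3.68% and 2.27% of genes were called lower.

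Levels of different genes were compared per kilobase of merged exons, since longer transcripts give more reads. In the control library *Txn1* had the highest level of the 9 genes, 6727 reads per kilobase with an exact Poisson interval from 6508 to 6952. It was followed by *Txnip* at 2344, *Txn2* at 1468, *Txnrd1* at 970.1 and *Arrdc3* at 610.5 reads per kilobase, and the intervals of these 5 levels do not overlap. *Arrdc2* (291.1), *Arrdc4* (264.4) and *Txnrd2* (244.9 reads per kilobase) came next with overlapping intervals, and *Arrdc1* was lowest at 59.4.

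In the iFIRKO library the α-arrestins kept their order of level among themselves, while *Txn2* came above *Txnip* and *Txnrd2* above *Arrdc4*. *Txnip* stood at 1297 reads per kilobase, with an interval from 1241 to 1355 that overlaps the one of *Txn2*, 1344 to 1446. *Arrdc3* stood at 308.8 reads per kilobase beside *Arrdc2* at 303.4 and *Txnrd2* at 280.5, again with overlapping intervals. *Arrdc4*, at 154.8, was above *Arrdc1* alone, at 73.8 reads per kilobase. These places depend on the length used. Per kilobase of the longest coding transcript, *Txn2* (3016) was above *Txnip* (2589) in the control library as well, and in the iFIRKO library *Txnrd1* (2021) was also above *Txnip* (1433). The levels of *Txn2*, *Txnrd1*, *Txnrd2*, *Arrdc3* and *Arrdc1* were over 1.5 times higher by that length, at 3016, 1898, 375.0, 932.8 and 89.6 reads per kilobase in control.

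A ratio of 2 genes within a library does not depend on the scaling between libraries. Per kilobase, *Txnip* stood to *Txn1* as 0.348 in the control library (interval 0.333 to 0.365) and as 0.187 in the iFIRKO library (interval 0.177 to 0.198), a log2 change of -0.90 in the ratio. The intervals of the 2 libraries lie far apart. The ratio of *Txnip* to the sum of *Arrdc1* to *Arrdc4* was 1.91 and 1.54, a log2 change of -0.31. In contrast, the ratio of *Txnrd1* to *Txn1* was 0.144 (interval 0.138 to 0.151) in control and 0.149 (0.142 to 0.156) in iFIRKO, with overlapping intervals. The ratio of *Txnrd2* to *Txn2* was 0.167 (0.152 to 0.183) and 0.201 (0.184 to 0.219), and that of *Txn1* to *Txn2* was 4.58 (4.36 to 4.81) and 4.97 (4.74 to 5.22). The ratios themselves depend on the gene length used, beyond the printed counting intervals: per kilobase of the longest coding transcript the ratio of *Txnrd1* to *Txn1* was 0.282 and 0.291, and that of *Txn1* to *Txn2* was 2.23 and 2.42.

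**Figure D4:**
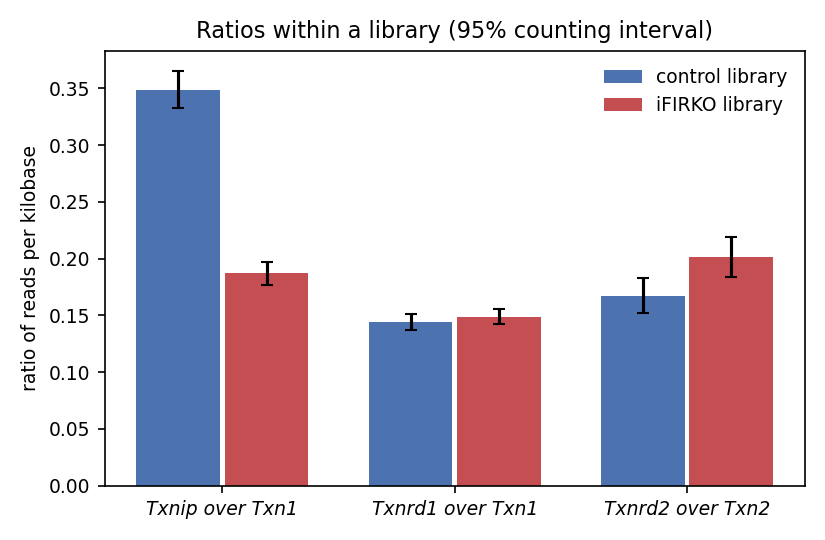
Ratio of reads per kilobase for 3 pairs of genes in the control (blue) and iFIRKO (red) libraries, with bars starting at 0 and 95% counting intervals. The *Txnip* to *Txn1* ratio was 0.348 and 0.187, while the *Txnrd1* to *Txn1* ratio was 0.144 and 0.149.

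The genes around these 9 were described by lists of their partners. The counts for each list stand beside 7.28% lower and 4.46% higher over all genes tested. The ubiquitin ligases of the NEDD4 family and their NDFIP adaptors, which α-arrestins recruit, had 10 of 11 genes tested, and all 10 were within 1.5-fold, with a median log2 fold change of 0.11. *Nedd4* itself had the highest level of the list per kilobase, with 10876 normalized reads (control) and 12845 (iFIRKO). *Itch*, the ligase known to mark TXNIP for degradation, had 2637 and 2316 normalized reads, a log2 fold change of -0.19. Other genes with an arrestin fold, the β-arrestins and the VPS26 subunits of retromer among them, had 6 of 8 tested, and all 6 were within 1.5-fold with a median of -0.079. *Vps26a*, with the highest level of the list per kilobase, had 1750 and 1753 normalized reads. The lowest fold change was that of *Arrb2*, with 1261 and 915.9 normalized reads and a log2 fold change of -0.46.

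Known partners and cargo of the α-arrestins, 7 of 8 tested, were also within 1.5-fold, with a median log2 fold change of -0.21. *Slc2a2*, the main glucose transporter of hepatocytes, came nearest to the limit, with 9018 normalized reads (control) and 13495 (iFIRKO), a log2 fold change of 0.581 against the limit of 0.585. *Slc2a1*, whose product TXNIP is known to remove from the cell surface, had 551.3 and 456.2 normalized reads. *Ddit4*, which had the highest level of the list per kilobase in control, had 2776 and 2402.

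Of the MLX network, the transcription factors to which the known activators of *Txnip* belong, all 10 genes were tested, and 1 was lower and 9 were within 1.5-fold, with a median log2 fold change of -0.049. The gene called lower was *Mnt*, a repressor that pairs with MLX or MAX, with 710.8 normalized reads (control) and 464.4 (iFIRKO), a log2 fold change of -0.61. *Mlxipl*, which encodes ChREBP and had the highest level of the list per kilobase, had 21448 and 15805 normalized reads, which gives a log2 fold change of -0.44 (interval -0.48 to -0.40) that stays within 1.5-fold. Of the 8 tested genes whose promoter window held the E-box pair shown above, 1 (*Txnip*) was past 1.5-fold, a share near the 11.7% of all tested genes past it in either direction, and the median log2 fold change of these 8 was -0.030. These genes were picked by sequence alone. Whether ChREBP, MondoA or MLX acts on them was not tested, so their values do not measure the activity of these factors. *Mlx* had 1550 and 1535, and *Mlxip*, which encodes MondoA, had 685.5 and 587.5.

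Downstream of the thioredoxins, the enzymes that take electrons from them had 13 of 13 genes tested, of which 1 was higher, none was lower and 12 were within 1.5-fold, with a median log2 fold change of 0.12. *Prdx1*, the peroxiredoxin with the highest level of the list per kilobase, stood at 33673 normalized reads (control) and 35725 (iFIRKO). The gene called higher was *Rrm2*, the S-phase subunit of ribonucleotide reductase, with 755.2 and 1264 normalized reads, which gives a log2 fold change of 0.74 (interval 0.56 to 0.93). *Rrm1*, its partner subunit, had 871.1 and 914.5. Of 21 other proteins with a thioredoxin domain, 15 were tested and all 15 were within 1.5-fold, with a median of 0.035. *Txndc5*, a disulfide isomerase of the endoplasmic reticulum with the highest level of that list, had 6806 and 7439 normalized reads.

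Thioredoxin reductases carry selenocysteine, and the genes that insert this amino acid were measured as well. All 7 were tested and within 1.5-fold, with a median log2 fold change of 0.023. *Sephs2*, which makes the selenium donor and had the highest level, stood at 35032 normalized reads (control) and 31108 (iFIRKO). Of 19 other selenoprotein genes, 15 were tested, of which 1 was higher and none was lower, with a median of -0.041, and *Gpx1* and *Gpx4* are also in the glutathione list below. *Selenop*, the plasma selenium carrier made by the liver, had the highest level per kilobase, with 251380 and 264900 normalized reads. The gene called higher was *Selenoh*, with 173.8 and 347.2 normalized reads and a log2 fold change of 0.98 (interval 0.62 to 1.39).

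The parallel glutathione and glutaredoxin genes, 10 of 10 tested, were all within 1.5-fold, with a median log2 fold change of 0.086. *Gpx1*, with the highest level of that list per kilobase, had 84157 and 75168 normalized reads. NRF2 and its targets, a list that shares *Gclc*, *Gclm* and *Gsr* with the glutathione list and *Srxn1* with the enzymes above, had 13 of 14 genes tested, of which 2 were lower and none was higher, with a median of 0.085. The genes called lower were *Osgin1*, which had the highest level per kilobase, with 10136 and 4597 normalized reads (log2 fold change -1.14), and *G6pdx*, the first enzyme of the pentose phosphate pathway and a source of NADPH, with 340.8 and 175.7 (log2 fold change -0.94). The next NADPH-producing enzyme of that pathway, *Pgd*, had 3053 and 4240 normalized reads, a log2 fold change of 0.47 in the opposite direction.

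**Figure D5:**
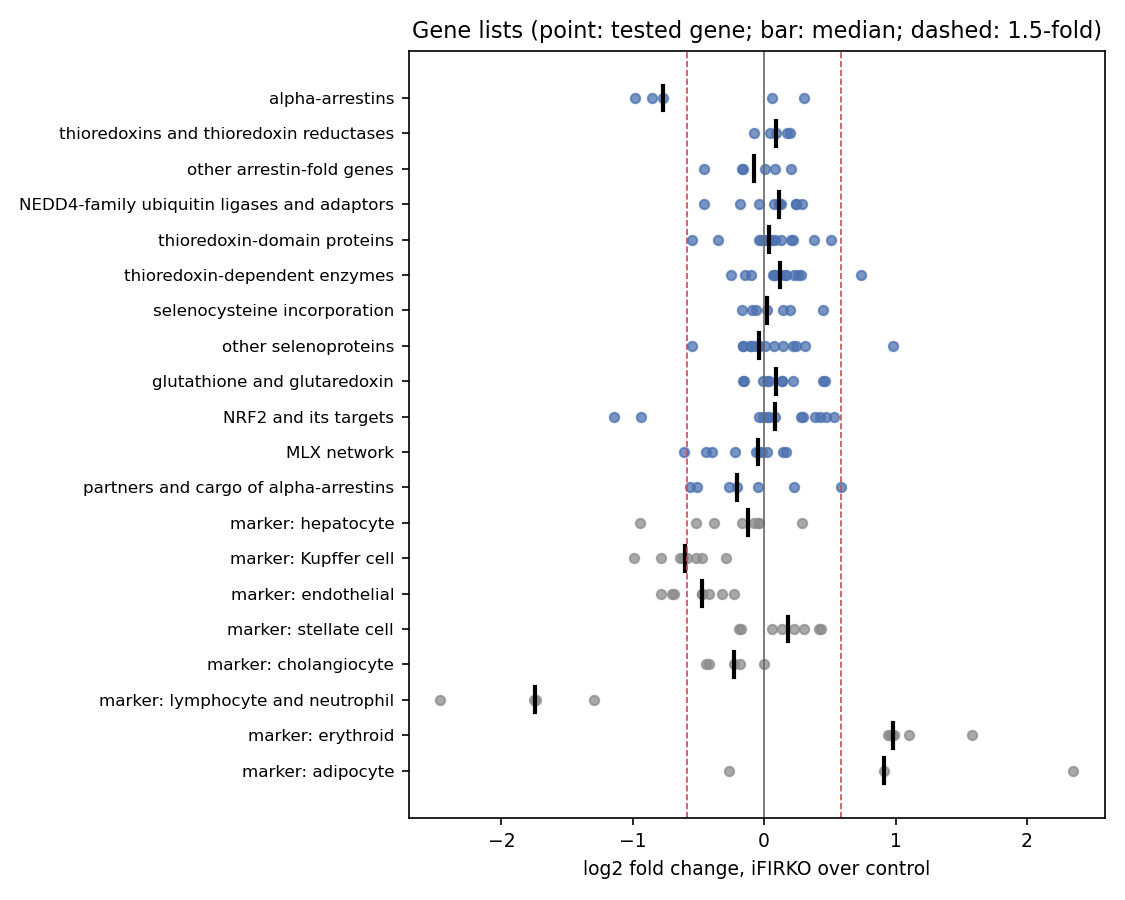
Log2 fold change of each tested gene (point) and the median (bar) in the 12 lists of related genes (blue) and the 8 lists of cell type markers (grey), with dashed lines at 1.5-fold. Of the 12 lists of related genes, the α-arrestins have the lowest median, -0.77.

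The 5 tested genes with values nearest to those of *Txnip*, by distance over the log2 values of the 2 libraries, were *Ctsc*, *Tmsb4x*, *Scarb1*, *Cyp7a1* and *Fdps*. *Ctsc*, a lysosomal protease gene, was nearest, with 7013 normalized reads (control) and 4334 (iFIRKO), a log2 fold change of -0.69. *Tmsb4x*, the gene of an actin-binding peptide, had 7500 and 4383 (log2 fold change -0.77). The other three are genes of lipid handling. *Scarb1*, the HDL receptor, had 6672 and 4267 (log2 fold change -0.64), and *Fdps*, an enzyme of the cholesterol pathway, had 7044 and 4563 (log2 fold change -0.63). *Cyp7a1*, the rate-limiting enzyme of bile acid synthesis, had 6698 and 4351 normalized reads (log2 fold change -0.62). With 2 libraries, such likeness is closeness of 2 values only.

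Markers of other cell types were measured in the same libraries, where 7.28% of all tested genes were lower and 4.46% were higher. Of 8 Kupffer cell genes, 5 were called lower and none higher, the sum was 30092 normalized reads in control and 19564 in iFIRKO, and the median log2 fold change was -0.60. Of 8 endothelial genes, 3 were lower and none higher, with sums of 12473 in control and 8868 in iFIRKO and a median of -0.47. Of 9 lymphocyte and neutrophil genes, 4 were tested and all 4 were lower, with sums over the 9 of 686.5 and 231.5. Of these 4, *Cd79a* and *S100a8* passed the minimum only in control, where they were higher, so that the count rests partly on the minimum, and without a minimum the median of the list went from -1.74 to -0.83. No gene of these 3 lists was at 0. None of 8 stellate cell genes was called (median 0.18), and none of the 5 tested cholangiocyte genes was called (median -0.23). All 6 tested erythroid genes were higher, with sums of 13481 and 27022, and of these *Slc4a1* passed the minimum only in iFIRKO, where it was higher. Of 6 adipocyte genes, 3 were tested, of which 2 were higher, with sums of 1180 and 1455. *Cidec*, 1 of the 2, passed the minimum only in iFIRKO, and with the minimum required in both libraries the median of the list went from 0.91 to 0.32. *Adipoq*, *Plin1* and *Lep* were at 0 in 1 or both libraries. Of the 8 hepatocyte genes, 1 was lower (*Apoa1*) and the median was -0.13. The part of these shifts in the values of *Txnip*, *Arrdc3* and *Arrdc4* was not tested, and fewer cells of a type and less RNA per cell cannot be told apart in whole liver.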

How the data were processed

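For the study, total RNA of the liver was made into TruSeq stranded mRNA libraries and sequenced at the company DNA Chip Research. The deposited values are log2 normalized read counts, 1 per gene symbol and library, with 0 for a scaled count of 1 or less. The submitters' processing notes name mm10. The aligner, counter and annotation are not given in the sources used here. Antilogs were taken. The worth of 1 read was taken as the commonest value near 2 normalized reads divided by 2, the reads of a pair. Of values under 20 reads, 50.4% in control and 52.9% in iFIRKO were then whole within 0.01 reads, so depths and read pairs are estimates and no count test was used. The design had been written for CPM, and its limits were carried over. Intervals are exact Clopper-Pearson (ratios) or Poisson (levels) at 95%, on read pairs rounded to whole numbers. Positions, lengths and 3′UTRs came from GENCODE M21 on GRCm38, and promoters and the mature miRNA from RefSeq on GRCm38.p6. All 9 members matched in each. *Vps26c* was read as *Dscr3*. Near-identical transcripts were sought with BLAST 2.17.0. The named genes are the 9 members, the 5 genes nearest to *Txnip*, and genes of the 12 lists of related genes. From each of these lists came those past 1.5-fold and the highest per kilobase in control. Genes of the marker lists were not named by this rule, and some of them past 1.5-fold are not named. *Itch*, *Arrb2*, *Slc2a1*, *Slc2a2*, *Mlx*, *Mlxip*, *Rrm1*, *Pgd* and *Txnrd3* were added after their values were seen. The members and lists were chosen with earlier results of these data known. Alternatives were other pseudocounts, minimums, scalings, a fold of 2, summed duplicate symbols and another gene length. Scripts were tested on simulated data. Tables and intervals were made with pandas 2.3.3 and scipy 1.17.1 (numpy 2.4.6, Python 3.11.15) and plots with matplotlib 3.10.9. miR-486a-3p and protein sequences were not analysed here.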

Additional observations from a re-analysis of the deposited data

How the results depend on the processing

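The log2 fold changes of the 9 members kept their sign and stayed inside their counting intervals under every pseudocount, minimum, scaling and summing tried, with *Txnip* between -0.87 and -0.85, *Arrdc3* between -0.99 and -0.97 and *Arrdc4* between -0.78 and -0.73. *Arrdc1* gave no value with a minimum of 5 CPM in 1 or both libraries, which it did not pass. With a fold above 2 in place of 1.5, 0 members were lower, and 209 of all tested genes were higher and 267 lower. The numbers of all genes higher and lower were 371 and 576 with a pseudocount of 1 CPM, 1960 and 2620 without a minimum, and 288 and 440 with the minimum of 5 CPM, where fewer genes are tested. The scalings moved the iFIRKO library by at most 0.012 on the log2 scale.

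Per kilobase of the longest coding transcript, which is shorter than the merged exons for each member but *Txn1*, the levels in control and iFIRKO were 2589 and 1433 for *Txnip*, 89.6 and 111.1 for *Arrdc1*, 399.4 and 416.4 for *Arrdc2*, 932.8 and 471.8 for *Arrdc3*, 3016 and 2864 for *Txn2*, 1898 and 2021 for *Txnrd1*, and 375.0 and 429.5 for *Txnrd2*. *Arrdc4* stayed inside its intervals, and *Txn1* has the same length by both. The ratios were then 0.385 and 0.207 for *Txnip* to *Txn1*, 1.53 and 1.24 for *Txnip* to the sum of *Arrdc1* to *Arrdc4*, 0.282 and 0.291 for *Txnrd1* to *Txn1*, 0.124 and 0.150 for *Txnrd2* to *Txn2*, and 2.23 and 2.42 for *Txn1* to *Txn2*. The log2 difference between libraries in a ratio of single genes does not depend on length. No paired analysis was possible because neither group holds more than 1 library, and for the same reason no library could be left out. At this depth *Arrdc1*, with under 100 read pairs in each library, has the widest interval of the members.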
